A study of Homo sapiens with 8 samples.

Results

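RNA-seq of MCF10A cells in stiff IPNs was compared with RNA-seq of the same cells in soft col:rBM gels, the pair of gels that hold equal amounts of reconstituted basement membrane matrix (rBM) but differ in the rest of the network. MCF10A is an established, non-malignant human mammary epithelial cell line, and the cells were kept encapsulated in the gels for 7 days. The stiff IPN is an interpenetrating network of rBM and alginate made stiff with calcium crosslinks, and the soft col:rBM gel is a mixture of rBM and collagen-1 (col-1) without alginate. Stiffness, alginate, calcium and col-1 therefore change together in this comparison, and their shares in any difference cannot be told apart. There were 2 libraries per gel, numbered by trial, so 4 of the 8 libraries of the series entered the comparison. The other 4 libraries, from soft IPNs (rBM and alginate without calcium crosslinks) and stiff col gels (stiff col-1), are used only where they are named. No drug, knockout or transgene was applied in any of these libraries. Of the 25369 genes listed, 13026 reached 10 normalized counts in 2 or more of the 4 libraries and were tested.

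Mammary epithelial cells rest on a basement membrane of laminins and type IV collagen that they bind through integrins and hemidesmosomes, while col-1 belongs to the stroma beyond it. Cells read the mechanics of these networks through integrin adhesions and the actomyosin cytoskeleton, with YAP and TAZ as much-studied transcriptional outputs on flat substrates. Squamous differentiation, which the skin uses to build its barrier, switches on S100 proteins, small proline-rich proteins, kallikreins and protease inhibitors, and the same genes respond to wounding and inflammation.

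The cells of all 4 libraries carried the markers of the line. KRT5 had 15259 and 38963 normalized counts in stiff IPNs and 14504 and 32735 in soft col:rBM gels, TP63, a basal epithelial transcription factor, had between 716 and 1865, and LUM, THY1, COL1A2 and PTPRC were at 0 throughout. The summed level of the 5 immune markers was 518 to 1633 in stiff IPNs and 1437 to 5169 in soft col:rBM gels, and nearly all of it came from CD68 and CD14. CD68, a lysosomal protein of macrophages that other cells also make, was called lower, with 1220 and 324 normalized counts in stiff IPNs against 5017 and 1348 in soft col:rBM gels. CD14, a lipopolysaccharide co-receptor of myeloid cells, was called higher, with 412 and 194 against 151 and 89, a log2 difference of 1.28 (adjusted p = 0.042, limma). PTPRC, the defining leukocyte gene, was at 0 in each library, and the part of immune cells in any result was not tested. The 7 fibroblast markers summed to 836 to 899 in stiff IPNs and 531 to 625 in soft col:rBM gels, nearly all from DCN, and the 4 endothelial markers summed to at most 270. Since these are bulk samples, fewer cells of a type and less RNA per cell cannot be told apart.

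The 4 libraries held 13065615 to 17831133 reads on genes each. In a principal component analysis of the 4 libraries, the first component, with 62.0% of the variance, ran from soft col:rBM trial 1 at -57.8 to stiff IPN trial 2 at 59.7, with soft col:rBM trial 2 at -8.69 and stiff IPN trial 1 at 6.85 between them. The gap between the 2 libraries of a gel was thus about as wide as the gap between gels. The trials differed in a shared way, since the change from trial 1 to trial 2 correlated between stiff IPN and soft col:rBM with r = 0.40 across genes, which are not independent replicates. The trial was therefore a term of the fit.

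With the trial in the model, 240 genes (1.84% of those tested) were higher in stiff IPNs and 192 (1.47%) were lower at an adjusted p below 0.05 in limma. Median changes were 1.90 on the log2 scale for the genes called higher and 1.38 in size for those called lower, and 61 of the first and 10 of the second differed by more than 8-fold. Fitted without the trial term, the same table gave 26 genes higher (0.200%) and 2 lower (0.0154%), all of them among the 240 and 192. Those 26 include 3 S100 genes, 2 of the cornified envelope, 3 kallikreins, 5 of the chemokine and NF-kB list, CEACAM6 and CLDN1, and neither of the 2 falls is in a list described below. Libraries of the 2 gels did not overlap for 233 of the 240 and 150 of the 192, which the test favours by its construction. Over all 13026 genes tested, 2333 lay higher and 2422 lower without overlap. A fit of all gels together, with the trial term, called 263 genes higher and 205 lower. The count also leaned on single libraries when all gels were fitted together: it was 1128 higher and 1361 lower without stiff IPN replicate 1, 401 and 400 when replicate 2 of that gel was left out, 79 and 12 without soft col:rBM replicate 1, and 47 and 21 without soft col:rBM replicate 2. The median difference of all genes was -0.01, and rescaling the libraries to equal totals moved it to 0.15 and gave 722 genes higher and 259 lower. Why both counts grew was not tested.

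**Figure D1:**
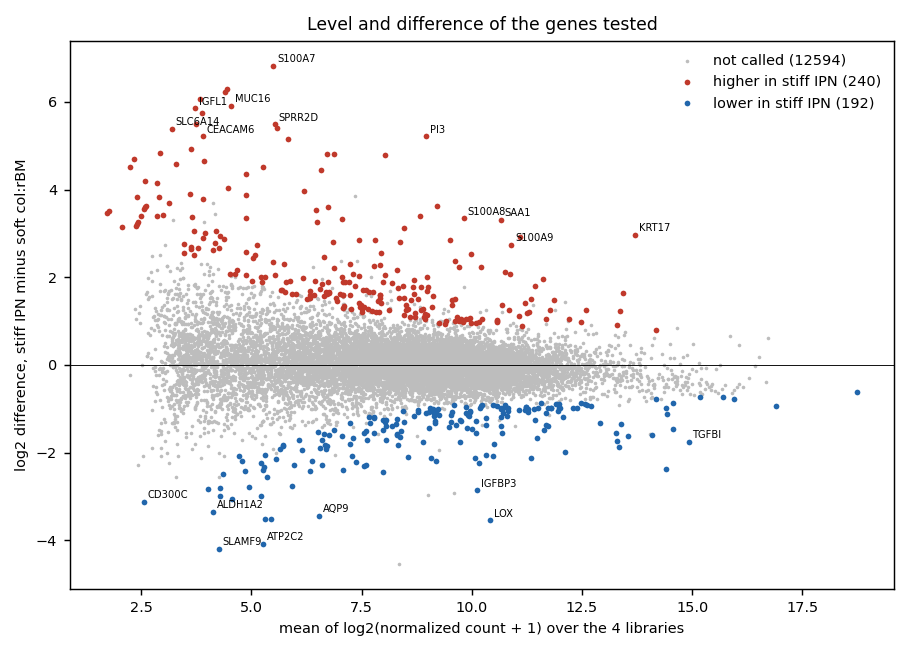
Each point is 1 of the 13026 genes tested, with its mean log2(normalized count + 1) over the 4 libraries on the x axis and the log2 difference, stiff IPN minus soft col:rBM, on the y axis. The 240 genes called higher (red) reached 6.83 (S100A7), the 192 called lower (blue) reached -4.20 (SLAMF9), and the rest are grey.

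The 2 trials gave log2 differences that correlated with r = 0.50 across the 13026 genes, with a standard deviation of 0.681 in trial 1 and 0.794 in trial 2. All 240 and all 192 called genes had the same sign in both trials, which the test favours by its construction.

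**Figure D2:**
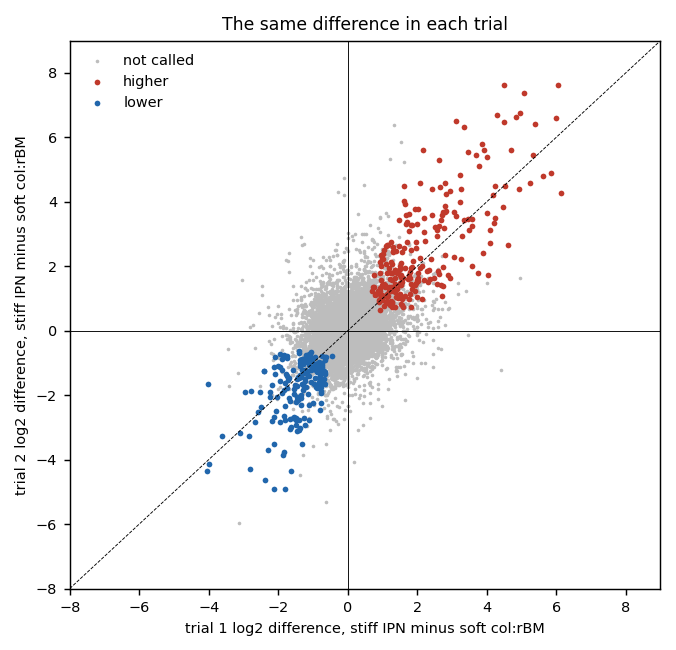
Each point is 1 gene, with the log2 difference between stiff IPN and soft col:rBM in trial 1 on the x axis and in trial 2 on the y axis, and the dashed line marks equal values. The genes called higher (red) and lower (blue) lie in the upper right and lower left quadrants, while many uncalled genes (grey) differ in 1 trial only.

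S100 proteins are small calcium-binding proteins, several of which are made by activated or inflamed epithelia. S100A7 (psoriasin; chromosome 1, 153430220 to 153433127 in hg19, minus strand) was the gene with the largest rise. It had 395 and 586 normalized counts in the trial 1 and 2 libraries of stiff IPNs against 5 and 2 in soft col:rBM gels. The log2 difference was 6.83 ± 0.47 (SE, n = 2 per gel; adjusted p = 2.96e-05, limma), and the gene was also called without the trial term. S100A8, which pairs with S100A9 to form calprotectin, had 2109 and 3930 in stiff IPNs and 241 and 332 in soft col:rBM gels, a log2 difference of 3.34 ± 0.23 (SE; adjusted p = 2.96e-05, limma). S100A9 rose from 731 and 742 to 4303 and 5671, or by 2.74 ± 0.22. These 3 genes were separated from the soft col:rBM libraries in each trial by more than the spread within either gel. S100P and S100A3 were also higher, by 1.78 and 1.53. In all, 5 of the 13 S100 genes tested rose and none fell, where 1.84% of all genes rose, with 3 to 6 higher when a library was left out, and the median over the 13 was 0.18. The abundant members did not move with them: S100A2 had 96348 and 103627 in stiff IPNs and 77359 and 100378 in soft col:rBM gels, and S100A6 had 76147 and 69401 against 139364 and 56882, a range that spans both stiff IPN libraries. Multimapped reads had been removed, so reads that S100A7 shares with its near copy S100A7A are not in these values.

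Small proline-rich (SPRR) proteins are crosslinked by transglutaminases into the cornified envelope, the protein shell of the outermost squamous cells. Of the 49 cornified envelope genes listed, 19 passed the filter. Among these, 6 rose, all of them SPRR genes, and none fell, where 1.84% of all genes rose. The median was 1.24 over the 19 and 0.79 over the 11 with 10 or more in all 4 libraries. The 6 became 3 without soft col:rBM replicate 2 and 8, beside 3 falls, without stiff IPN replicate 1. SPRR1A had 242 and 397 normalized counts in stiff IPNs and 5 and 8 in soft col:rBM gels, a log2 difference of 5.40 ± 0.41 (SE; adjusted p = 5.2e-05, limma), and was called without the trial term as well. SPRR1B, present in each library, rose from 247 and 485 to 1671 and 1923, or by 2.37 ± 0.25. SPRR2D had 117 and 821 against 5 and 7, so the stiff IPN libraries differed from each other by several fold but not as much as from the other gel. SPRR2A had 57 and 196 against 1 and 1, which is 244 reads against 2 and a ratio of the summed normalized counts of 126.5 with a 95% counting interval from 34.6 to 1050.5 (exact, conditional on the sum). SPRR3 had 28 and 55 against 1 and 0. SPRR2A, SPRR2D and SPRR2E are close paralogs, and reads that map to several of them had been removed as multimapped. Other envelope genes took a different course: involucrin (IVL) had 190 and 401 against 103 and 245 and was not called, and CASP14, the protease of terminal keratinocytes, had 322 and 13 against 2798 and 865, a log2 difference of -4.53 ± 0.78 that did not pass (adjusted p = 0.105, limma).

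The 6 SPRR genes lie in 1 stretch of chromosome 1 together with S100A7, S100A8 and S100A9. Between SPRR4 and S100A1 (152943124 to 153604515 in hg19), 11 of the 17 genes tested with a position were higher and none was lower. Over all genes tested, 1.84% were higher. Several of the 11, among them SPRR1A, SPRR2A, SPRR3 and S100A7, passed the filter only through the stiff IPN libraries. For such genes only a rise could be seen, so the count is in part set by the filter. The SPRR promoters are shown because they share a short element. The AP-1 motif TGANTCA, searched on both strands, was found in the promoter window (250 bases before to 50 after a RefSeq start) of 4 of the 4 called SPRR genes with a window, against 7.4% of the 9609 genes tested with a window and 16.9% of the 160 called higher. Stretches upstream of the start (RefSeq, GRCh38.p14) read as follows, with the motif in capitals, at chr1:152983948-152984004 (plus strand), chr1:153031037-153031123 (plus), chr1:153001554-153001610 (plus) and chr1:153057678-153057734 (minus).
SPRR1A: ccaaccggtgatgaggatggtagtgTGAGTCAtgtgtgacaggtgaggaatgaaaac
SPRR1B: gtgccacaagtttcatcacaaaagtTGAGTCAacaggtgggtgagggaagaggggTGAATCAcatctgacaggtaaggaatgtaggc
SPRR3: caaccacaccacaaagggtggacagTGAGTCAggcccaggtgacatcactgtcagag
SPRR2A: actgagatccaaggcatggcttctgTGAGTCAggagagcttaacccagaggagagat
The motif lies between 102 and 197 bases before the start in these windows, and its presence is a description of sequence only. The ETS motif CAGGAAG, searched in the same way, was found for 23.8% of the 160 called higher against 16.6% of the 9609, and for 4 of the 5 called S100 genes.

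Kallikreins (KLK) are secreted serine proteases that shed squamous cells by cutting desmosomal proteins, and serpins, SPINK proteins and WAP proteins such as PI3 (elafin) and SLPI hold such proteases in check. Of 23 genes tested in these families, 13 rose and none fell, where 1.84% of all genes rose, and the median was 1.26 (0.57 over the 17 with 10 or more in all 4 libraries). KLK5, KLK7 and KLK10 passed the filter only through the stiff IPN libraries. KLK7 (chromosome 19, 51479724 to 51487355 in hg19) had 127 and 289 normalized counts in stiff IPNs and 1 and 2 in soft col:rBM gels, KLK10 had 101 and 329 against 2 and 1, and KLK5 had 67 and 196 against 2 and 0. Their log2 differences were 6.30 ± 0.49, 6.23 ± 0.60 and 6.06 ± 0.73 (SE), and each was called with and without the trial term. All 3 sat at 2 or 3 reads in total over the soft col:rBM libraries, so the ratio for KLK7 was 138.7 with a counting interval from 47.1 to 675.2. KLK8 rose as well, and the 4 genes tested between KLK1 and KLK14 on chromosome 19 (51322402 to 51587502 in hg19) were all higher. For KLK5, KLK7 and KLK10 only a rise could be seen, since the filter let them in through the stiff IPN libraries. Inhibitors rose beside the proteases. PI3 had 2616 and 3577 normalized counts in stiff IPNs and 36 and 182 in soft col:rBM gels, a log2 difference of 5.22 ± 0.41 (SE; adjusted p = 0.000843, limma), and SLPI had 8072 and 11493 against 3518 and 4576, a difference of 1.26. SERPINB2, SERPINB3, SERPINB4 and SPINK6 rose by 2.01 to 2.81, with reads that map to both SERPINB3 and SERPINB4 removed as multimapped. The count of 13 was 3 to 14 when a library was left out, the lowest of them without soft col:rBM replicate 2.

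**Figure D3:**
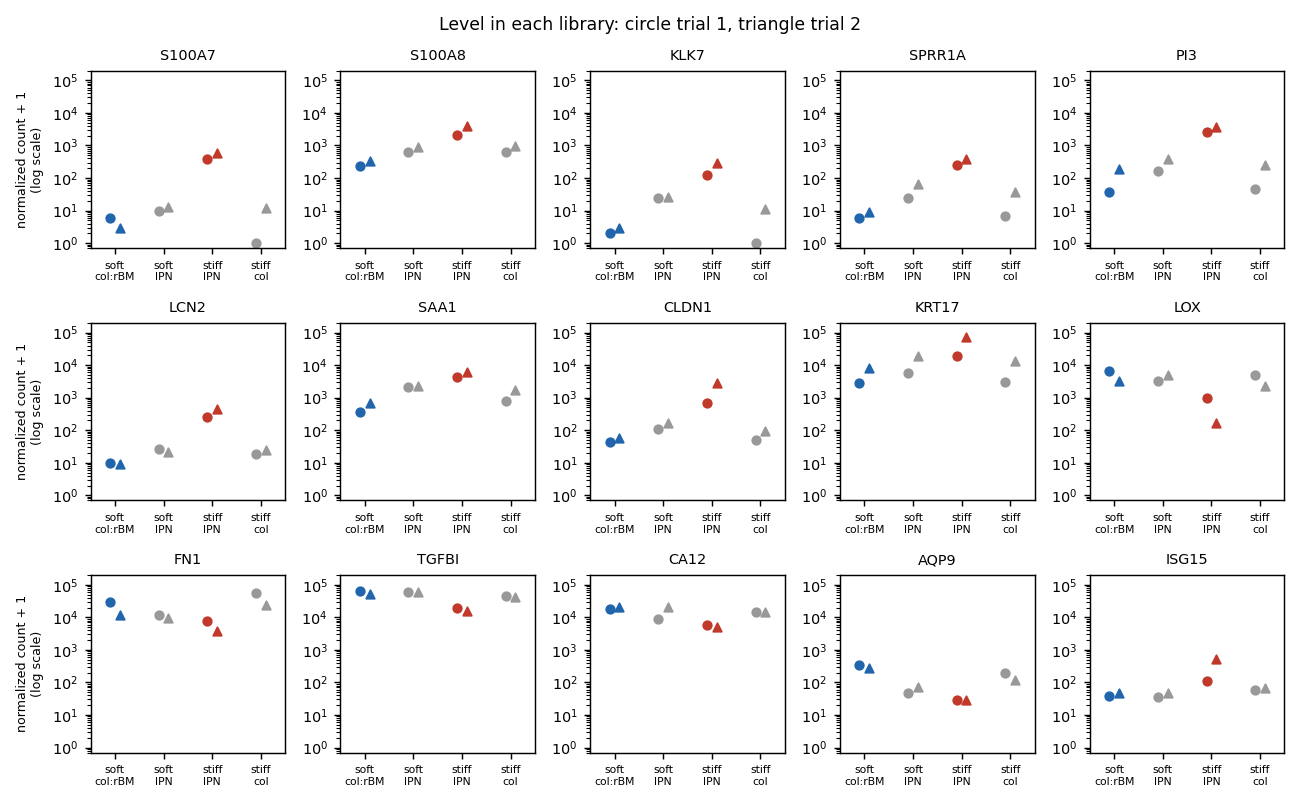
Normalized count + 1 (log scale) of 15 genes in each of the 8 libraries, with soft col:rBM in blue, stiff IPN in red, the other gels in grey, circles for trial 1 and triangles for trial 2. S100A7 stood at 395 and 586 in stiff IPNs and at 12 or less in the other gels, LOX at 946 and 170 in stiff IPNs and at 2277 or more elsewhere.

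Keratins, the intermediate filaments of epithelia, moved unevenly. KRT17, a keratin of wounded and hyperproliferative epithelium, had 19555 and 71907 normalized counts in stiff IPNs and 2883 and 7944 in soft col:rBM gels, a log2 difference of 2.97 ± 0.20 (SE; adjusted p = 2.96e-05, limma). KRT6B rose from 60 and 318 to 616 and 3456, or by 3.39 ± 0.24. For both genes trial 2 was several fold above trial 1 in both gels, and neither was called without the trial term. The near copy of KRT6B, KRT6A, had 19961 and 45308 against 19674 and 35808 and did not pass, with a difference of 0.18 ± 0.18. Of the 17 keratins tested, 3 rose (KRT80 was the third) and none fell, where 1.84% of all genes rose. Under equal totals 10 rose, and without stiff IPN replicate 1 there were 7 rises and 1 fall. Further leading rises lie outside these families. MUC16, a membrane mucin, had 126 and 256 against 2 and 2, and CEACAM6, an adhesion protein of epithelia and granulocytes, had 98 and 83 against 1 and 2. IGFL1, a secreted insulin growth factor-like protein, had 30 and 322 against 0 and 2 and was near 0 in all other gels. ATP6V1C2, a proton pump subunit, had 44 and 178 against 1 and 1, and SLC6A14, an amino acid transporter, had 57 and 59 against 0 and 1. MUC16, CEACAM6, IGFL1, ATP6V1C2 and SLC6A14 passed the filter only through the stiff IPN libraries, so for them only a rise could be seen.

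Of 33 genes of the chemokine, interleukin 1 and NF-kB list that were tested, 15 were higher and none lower, with a median of 0.95, and 8 to 17 were higher when a library was left out, with 3 lower in the fit without stiff IPN replicate 1. Over all genes tested, 1.84% were higher. LCN2 (lipocalin 2, an iron-siderophore binding protein) had 258 and 441 normalized counts in stiff IPNs and 9 and 8 in soft col:rBM gels, a log2 difference of 5.16 ± 0.42 (SE; adjusted p = 6.94e-05, limma). LCN2 passed the filter only through the stiff IPN libraries, so for this gene only a rise could be seen. SAA1, an acute phase apolipoprotein, had 4218 and 6114 against 373 and 696, and its neighbour SAA2 had 341 and 586 against 24 and 16. Reads that map to both of these near copies had been removed as multimapped. LIF, a cytokine that signals through STAT3, rose from 25 and 25 to 185 and 488, or by 3.54 ± 0.41. In these 4 genes both stiff IPN libraries lay above both soft col:rBM libraries by at least several fold. The neutrophil-attracting chemokines CXCL1, CXCL2 and CXCL8 rose by 2.85, 2.08 and 2.54, and complement factor B (CFB) by 3.11. The interleukins IL1A and IL1B were not called: IL1B had 1959 and 861 against 1377 and 841. STAT3 itself had 2414 and 2465 against 2202 and 2288, a difference of 0.12 ± 0.21.

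The promoters of CXCL1, CXCL2 and CXCL8 are shown because these 3 chemokine genes rose together and hold the same NF-kB motif. The motif GGANTTTCC was found, on either strand, in the windows of 5 of the 11 called genes of this list with a window (45.5%), against 2.4% of the 9609 genes and 5.6% of the 160 called higher. The stretches (RefSeq, GRCh38.p14) are chr4:73869290-73869348 (plus strand), chr4:74099239-74099297 (minus) and chr4:73740453-73740511 (plus), with the motif in capitals.
CXCL1: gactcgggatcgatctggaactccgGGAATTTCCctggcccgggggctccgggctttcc
CXCL2: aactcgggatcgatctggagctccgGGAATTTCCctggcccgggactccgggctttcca
CXCL8: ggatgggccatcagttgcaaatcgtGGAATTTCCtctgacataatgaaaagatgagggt
The CXCL1 and CXCL2 stretches are nearly the same sequence, as these genes are close paralogs.

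Interferon response genes, which cells switch on downstream of interferons or of sensors of foreign nucleic acid, were the list with the most rises. Of 43 tested, 17 were higher, where 1.84% of all genes were, and none was lower. The median was 1.12 with 40 of 43 above 0. IFI27 had 123 and 671 normalized counts in stiff IPNs and 19 and 16 in soft col:rBM gels, a log2 difference of 3.97 ± 0.59 (SE; adjusted p = 0.0102, limma). MX1, a dynamin-like antiviral GTPase, had 24 and 92 against 2 and 18. ISG15, a ubiquitin-like modifier, had 108 and 511 against 38 and 46, and IFIT2, an RNA-binding antiviral protein, had 61 and 166 against 15 and 24. For each of these 4 genes stiff IPN trial 2 was the highest of the 4 libraries and stiff IPN trial 1 the next. The RNA sensors DDX58 (RIG-I) and IFIH1 (MDA5) rose by 2.02 and 1.60, and the guanylate-binding proteins GBP1 and GBP2 by 1.46 and 1.67. None of the 17 was called without the trial term, and the count was 13 higher with 1 lower without stiff IPN replicate 2, 31 higher without stiff IPN replicate 1, and 1 higher without either soft col:rBM library. Under equal totals it was 26.

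The promoters of ISG15 and IFIT1 are shown as examples from the 17. The core of the interferon-stimulated response element, GAAANNGAA, was found on either strand in the windows of 10 of the 13 called interferon genes with a window (76.9%), against 8.9% of the 9609 genes, 16.9% of the 160 called higher and 15.2% of the 145 called lower. The stretches (RefSeq, GRCh38.p14) are chr1:1013359-1013429 (plus strand) and chr10:89392483-89392554 (plus), with overlapping matches run together in capitals.
ISG15: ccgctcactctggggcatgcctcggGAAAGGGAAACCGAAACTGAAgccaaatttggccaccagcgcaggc
IFIT1: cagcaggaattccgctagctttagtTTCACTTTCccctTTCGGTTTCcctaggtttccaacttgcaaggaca
The 3 overlapping matches of ISG15 span 113 to 93 bases before its start, and the 2 of IFIT1, on the other strand, 115 to 94. GBP1, MX1 and SAMD9 held only 1 match each upstream of the start.

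CLDN1 (claudin 1, a sealing protein of tight junctions) had 672 and 2761 normalized counts in stiff IPNs and 43 and 55 in soft col:rBM gels, a log2 difference of 4.78 ± 0.38 (SE; adjusted p = 0.000354, limma), and was also called without the trial term. ELF3, an epithelial ETS transcription factor, had 544 and 712 against 53 and 8. CDH1 (E-cadherin) rose from 2339 and 2200 to 3972 and 5620, and EPCAM from 188 and 102 to 408 and 434. Over all genes tested, 1.84% rose and 1.47% fell. Of 22 claudin and tight junction genes 3 rose and none fell, and no desmosome gene of 10 was called, with 2 at an unadjusted p below 0.05. The 3 became 8 under equal totals, 9 without stiff IPN replicate 1 and 1 without soft col:rBM replicate 2. CLDN4 had 464 and 837 against 183 and 9, and its log2 difference of 3.86 ± 2.02 was not called. Among 26 markers of the epithelial to mesenchymal transition 6 rose and 7 fell, but 3 rose and none fell without soft col:rBM replicate 1, and none was called without soft col:rBM replicate 2. On the mesenchymal side, VIM (vimentin) fell from 58049 and 18444 to 22798 and 9804, ZEB2, a repressor of E-cadherin, from 594 and 576 to 338 and 104, and SNAI2 by 0.97 on the log2 scale. TAGLN, an actin-binding protein of smooth muscle, went the other way with 111 and 2728 against 12 and 29, a difference of 4.81 ± 0.80 whose size rests on stiff IPN trial 2. ACTA2, another smooth muscle gene, had 377 and 152 against 720 and 339 and fell by 1.04 on the log2 scale, although its libraries overlapped between gels.

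HMGCS1, an early enzyme of the mevalonate pathway, had 4171 and 9096 normalized counts in stiff IPNs and 1673 and 1486 in soft col:rBM gels, and FDPS, which makes farnesyl diphosphate, had 14303 and 26286 against 7022 and 5571. Of 33 genes of cholesterol and fatty acid synthesis, 3 rose and none fell, and the median was 0.47 (0.072 from trial 1, 0.85 from trial 2). The 3 rises became 13 under equal totals, 22 without stiff IPN replicate 1, 5 without stiff IPN replicate 2 and 0 without either soft col:rBM library. HBEGF, a heparin-binding ligand of the EGF receptor, had 708 and 1067 against 58 and 265, a difference of 2.80 ± 0.36, and EPGN, a related ligand, rose by 1.04. Of 29 metallothionein and NRF2 target genes 2 rose, NQO1 and AKR1C2, and none fell, where 1.84% of all genes rose. There were 10 rises under equal totals, 14 without stiff IPN replicate 1 and 0 without either soft col:rBM library.

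**Figure D4:**
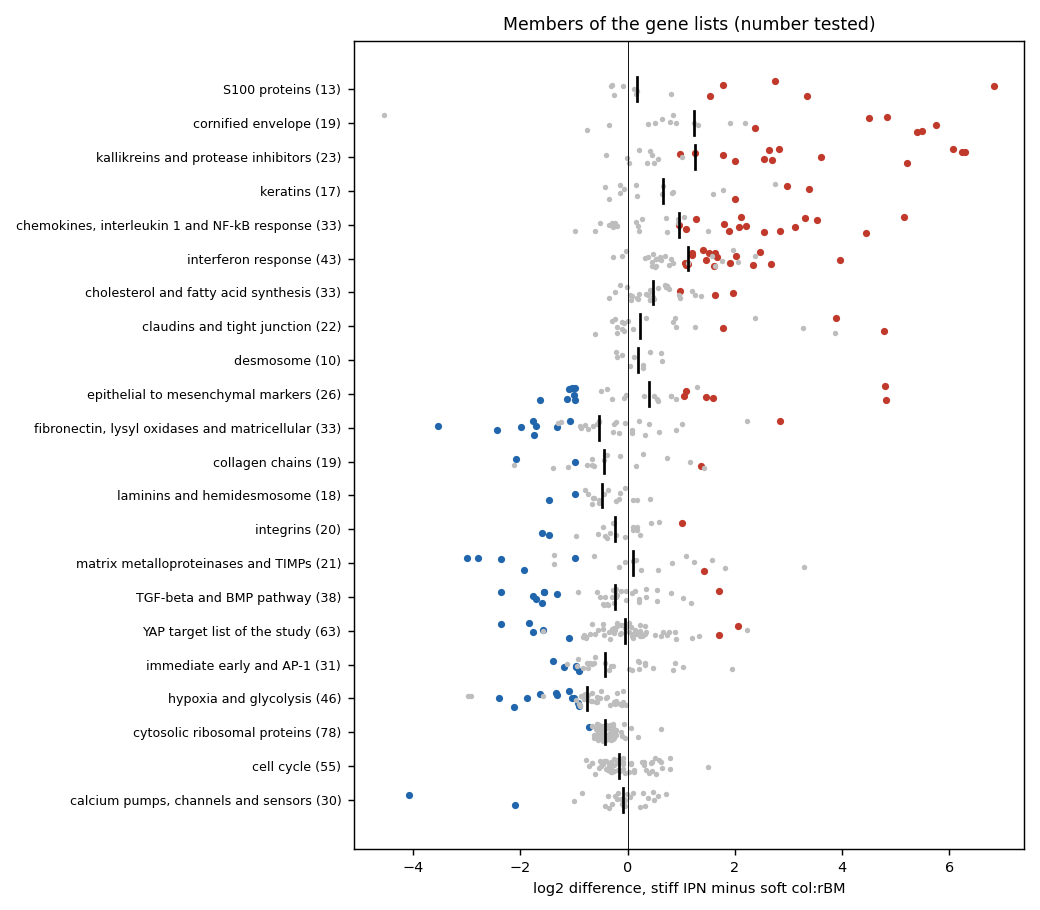
Each point is the log2 difference, stiff IPN minus soft col:rBM, of 1 tested member of the gene list named at the left, with the number tested in brackets and the median as a black bar. Members called higher are red, lower blue and not called grey, and the medians ran from 1.26 for kallikreins and protease inhibitors to -0.76 for hypoxia and glycolysis.

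Of 33 genes of fibronectin, lysyl oxidases and matricellular proteins 8 fell, where 1.47% of all genes fell, and 1 rose, with a median of -0.53. LOX (lysyl oxidase, which crosslinks collagen and elastin; chromosome 5, 121398890 to 121414108 in hg19) had 946 and 170 normalized counts in stiff IPNs and 6587 and 3325 in soft col:rBM gels, a log2 difference of -3.54 ± 0.33 (SE; adjusted p = 0.000716, limma). LOXL2, a related oxidase, had 5517 and 891 against 13279 and 5836. FN1 (fibronectin) had 7577 and 3936 against 28969 and 11569, and TGFBI, an adhesive matrix protein induced by TGF-beta, had 18760 and 15302 against 62653 and 52236. The stiff IPN libraries were below both soft col:rBM libraries for each of these 4 genes, and for TGFBI they were also close to each other. ECM1, an extracellular matrix protein, fell by 2.44. The riser was TNC (tenascin C), with 194 and 1118 against 32 and 127. Without a soft col:rBM library the falls in this list were 1 and 3, and without a stiff IPN library 12 and 8.

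Of 19 collagen chains 2 fell and 1 rose, where 1.47% of all genes fell and 1.84% rose. The median was -0.43, 13 differences were negative and 12 chains were at an unadjusted p below 0.05, as were 1999 of the 13026 genes. COL6A3, a chain of microfibrillar type VI collagen, had 160 and 35 normalized counts in stiff IPNs and 377 and 275 in soft col:rBM gels, and COL17A1, the transmembrane collagen of hemidesmosomes, had 16935 and 14108 against 36245 and 25367. COL12A1, a fibril-associated collagen, had 676 and 512 against 200 and 256 and rose by 1.37. COL17A1 and its hemidesmosome partner ITGB4, with 21849 and 9669 against 59921 and 27008, were the 2 falls among 18 laminin and hemidesmosome genes, of which 15 had a negative difference. Among 20 integrins, ITGB4 and the fibronectin receptor chain ITGA5 fell, by 1.47 and 1.59 on the log2 scale. ITGB6, whose product pairs with the alpha v chain and binds latent TGF-beta, rose from 821 and 1406 to 1918 and 2442, and ITGB1 with 33065 and 21026 against 42214 and 28032 did not pass. Without either soft col:rBM library no collagen chain, laminin, hemidesmosome gene or integrin was called, and without stiff IPN replicate 1 the collagen chains held 7 falls and 3 rises.

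Of 21 proteases of the matrix and their regulators 5 fell and 1 rose, where 1.47% of all genes fell and 1.84% rose. In this list 11 differences were positive, 10 were negative and the median was 0.10. Without soft col:rBM replicate 1 the counts were 0 falls and 1 rise, and without soft col:rBM replicate 2 they were 0 and 2. MMP1 (interstitial collagenase, which cuts fibrillar collagen) had 28 and 5 normalized counts in stiff IPNs and 142 and 77 in soft col:rBM gels, a log2 difference of -3.00 ± 0.48 (SE; adjusted p = 0.0059, limma). MMP10 (stromelysin 2) had 33 and 3 against 120 and 53. PLAU, the urokinase plasminogen activator, was the riser at 1.42. MMP9 had 30 and 27 against 0 and 8 and did not pass (adjusted p = 0.0567, limma). Genes of the TGF-beta and BMP pathway showed 7 falls and 1 rise among 38, where 1.47% of all genes fell, and TGFBI, named above, is among the falls. There were 2 falls and no rise without either soft col:rBM library, and 13 falls and 4 rises without stiff IPN replicate 1. The ligand TGFB1 fell from 4969 and 1601 to 1457 and 632, BMP6 from 255 and 58 to 117 and 11, and TGFB2 rose from 32 and 23 to 92 and 89. IGFBP3, which binds insulin-like growth factors and is itself induced by TGF-beta, had 838 and 203 against 3051 and 2950, a log2 difference of -2.86 ± 0.44.

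Several leading falls are genes of low level that belong to none of these families. SLAMF9, an immunoglobulin family receptor, had 9 and 1 normalized counts in stiff IPNs against 163 and 40 in soft col:rBM gels, the largest called fall, a log2 difference of -4.20 ± 0.50 (SE; adjusted p = 0.000851, limma). ATP2C2, a calcium and manganese pump of the secretory pathway, had 21 and 3 against 351 and 70. AQP9, a channel for water and glycerol, had 27 and 27 against 345 and 268 and was 1 of the 2 falls called without the trial term. FAM110C, with 673 and 417 against 2415 and 2603, was the other. TEK, an angiopoietin receptor, had 41 and 3 against 181 and 119, and SEMA6D, a semaphorin, had 10 and 5 against 78 and 57. ALDH1A2, a retinaldehyde dehydrogenase, had 14 and 1 against 51 and 59, and SERPING1, the C1 inhibitor, had 5 and 5 against 96 and 18. PADI4, which converts arginine to citrulline, had 7 and 5 against 24 and 121. CD300C, an immune receptor, had 1 and 1 against 16 and 17, a ratio of 16.5 with a 95% counting interval from 4.2 to 142.1. SLAMF9, SERPING1, PADI4 and CD300C passed the filter only through the soft col:rBM libraries, so for them only a fall could be seen. Within the calcium list, ATP2C2 and the calcium release channel ITPR1, with 346 and 93 against 980 and 608, were the 2 of 30 genes called. Both were lower, where 1.47% of all genes fell, and the median of the list was -0.08.

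Genes of hypoxia and glycolysis all pointed one way: 11 of 46 fell, where 1.47% of all genes fell, and none rose. All 46 differences were negative with a median of -0.76, against -0.01 over all genes. ENO2, a glycolytic enolase, had 132 and 25 normalized counts in stiff IPNs and 574 and 166 in soft col:rBM gels. CA12, a membrane carbonic anhydrase, had 5776 and 5058 against 18538 and 21325, a log2 difference of -1.88 ± 0.20 (SE; adjusted p = 0.000472, limma). ADM (adrenomedullin) had 262 and 257 against 766 and 1657. TXNIP, an inhibitor of glucose uptake, fell by 1.63 and GAPDH by 0.93. Under equal totals the median of the list was -0.60. The 11 falls became 1 without either soft col:rBM library, 4 when stiff IPN replicate 2 was left out and 35 when replicate 1 of that gel was, and none was called without the trial term. The size of the difference was not even between trials, with a median of -0.33 in trial 1 and -1.10 in trial 2. CA9, a hypoxia marker, had 918 and 36 against 1408 and 1480 and was not called, and neither was LDHA with 51823 and 41617 against 36939 and 65349. The hypoxia response core ACGTG was found in the windows of 5 of the 10 called genes of this list with a window, against 32.4% of the 9609 genes.

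Among translation genes of very high level a few were called lower by less than 1 on the log2 scale. EEF1A1, an elongation factor with many processed copies in the genome, had 449966 and 275075 normalized counts in stiff IPNs and 617841 and 476779 in soft col:rBM gels, and EEF2 had 61803 and 38196 against 97459 and 71582. Of 78 cytosolic ribosomal protein genes and partners, 1 was called (GNB2L1, lower) although 75 had a negative difference, with a median of -0.42, and under equal totals the median was -0.26 and none was called. Immediate early and AP-1 genes showed 5 falls and no rise among 31, but none was called without either soft col:rBM library, and 12 fell and 5 rose without stiff IPN replicate 1. Over all genes tested, 1.84% rose and 1.47% fell. FOSL2 had 1389 and 822 against 2348 and 2491, JUNB had 1950 and 1532 against 4295 and 2628, and FOS had 1093 and 405 against 1809 and 931. EGR1 and FOSL1, with differences of -0.76 and -0.83, did not pass. None of the 55 cell cycle genes was called, with 6 at an unadjusted p below 0.05, and their median was 0.39 by trial 1 but -0.59 by trial 2. Leaving out stiff IPN replicate 2 gave 15 of them higher and none lower, and leaving out stiff IPN replicate 1 gave 1 higher and 29 lower, so the direction of this list depends on the trial.

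Targets of YAP were examined with the list that the study had taken from earlier work on flat culture. Of 63 such genes tested, 2 rose and 5 fell, where 1.84% of all genes rose and 1.47% fell, and the median was -0.05. Under equal totals 9 rose and 6 fell, with a median of 0.11. No target was called when a soft col:rBM library was left out, while 10 rose and 21 fell without stiff IPN replicate 1. The falls included TNS1, TGM2, DAB2 and AXL, and the rises were SLIT2 and TGFB2. TNS1, an adhesion protein, had 84 and 35 normalized counts in stiff IPNs and 236 and 165 in soft col:rBM gels, and SLIT2, a guidance ligand, had 44 and 55 against 7 and 17. Among the canonical targets, CTGF had 91 and 364 against 47 and 31, a log2 difference of 2.23 ± 0.57 that did not pass (SE; adjusted p = 0.0832, limma). It was called higher under equal totals (adjusted p = 9.16e-08), without stiff IPN replicate 1 (0.00322) and with the variance trend but no robust moderation (0.0384). CYR61 had 260 and 666 against 371 and 297, ITGB2 had 99 and 110 against 159 and 100, and ANKRD1 was below the filter. CTGF and CYR61 were thus highest in stiff IPN trial 2, and CYR61 was lower than in soft col:rBM in trial 1. YAP1 had 3634 and 2631 against 3464 and 4104 and WWTR1 (TAZ) 950 and 657 against 844 and 1062, with differences of -0.29 ± 0.24 and -0.26 ± 0.26. Among 43 actomyosin genes 4 fell and 1 rose, with a median of 0.07, while 4 fell and 5 rose under equal totals and none was called without either soft col:rBM library.

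The soft IPN, which shares alginate and rBM with the stiff IPN and softness and rBM with the col:rBM gel, splits the difference into steps. Fitted over all gels with the trial term, stiff IPN against soft IPN gave 229 genes higher (1.76%) and 287 lower (2.20%). Soft IPN against soft col:rBM gave 0 higher (0%) and 0 lower (0%), but the lowest adjusted p, that of SAA1, was 0.0519 (limma), just above the threshold. In this step 618 genes were at an unadjusted p below 0.05 in limma, where the number of tests times 0.05 is 651. The steps share the soft IPN libraries with each other, and each shares a gel with the comparison that chose the genes, so the values are given side by side. For the 240 genes called higher the median steps were 1.47 from soft to stiff IPN and 0.50 from soft col:rBM to soft IPN, and for the 192 called lower they were -1.30 and -0.13. S100A7 had 9 and 12 normalized counts in soft IPNs, close to soft col:rBM gels, with steps of 5.40 and 1.43. KLK7, with 23 and 25, lay between the gels, with steps of 2.95 and 3.35. LOX had 3207 and 4950, within or near the range of soft col:rBM gels, with steps of -3.31 and -0.23. AQP9 departed from this pattern among the falls. It had 47 and 70 in soft IPNs, so that its larger step, -2.39, was between the soft gels and the smaller, -1.06, between the IPNs. SAA1, with 2126 and 2361 in soft IPNs, likewise had its larger step, 2.13, between the soft gels.

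**Figure D5:**
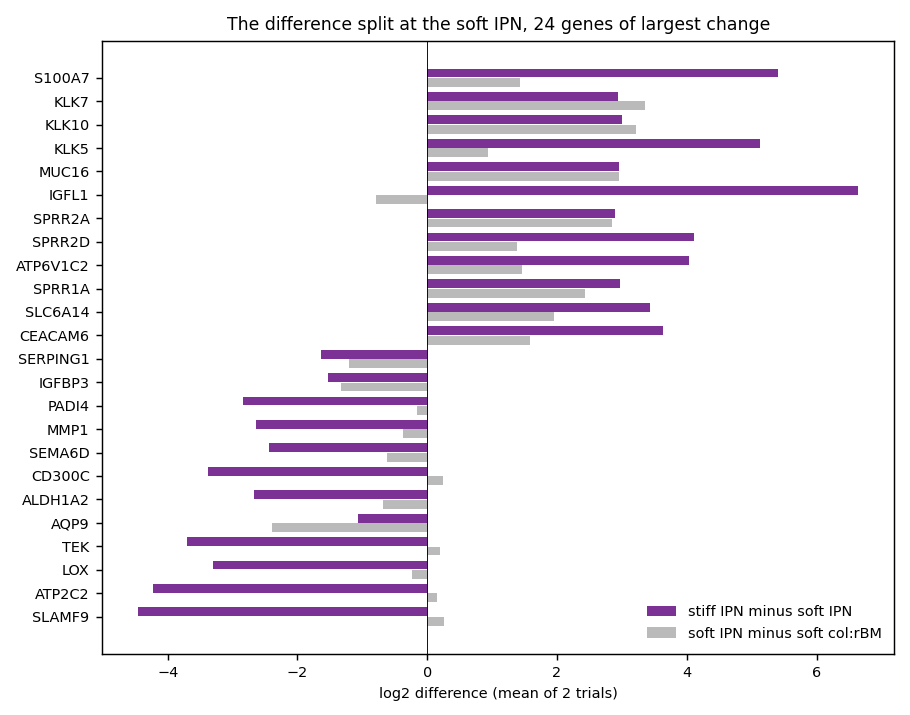
Bars give the log2 difference, averaged over the 2 trials, of stiff IPN minus soft IPN (purple) and of soft IPN minus soft col:rBM (grey) for the 12 largest rises and 12 largest falls. IGFL1, at 0 in both soft IPN libraries, has the longest purple bar at 6.64, and AQP9 is the fall with the longest grey bar at -2.39.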

How the data were processed

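RNA-seq of MCF10A cells was analysed in 4 libraries, 2 each from stiff IPNs and soft col:rBM gels. The authors trimmed reads, aligned them to hg19 (Bowtie2 in the methods, TopHat2 2.0.13 in the submitters' processing notes), discarded unmapped, low quality and multimapped reads, and used HTSeq to count what remained per gene. The annotation and strand setting are not given in the sources used here. The deposited values are a signal, read counts scaled by 1 factor per library by the authors and rounded to whole numbers, called normalized counts here. Each factor was read from the whole numbers that are empty or doubled in a library's values, which gave read totals and the reads behind low values. Intervals cover counting error only, since the reads carry no molecular identifiers. Of the symbols listed, 28 had become dates and were dropped.

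Values were fitted as log2(value + 1) with limma 3.58.1 in R 4.3.3 (gel and trial as terms, mean-variance trend, robust moderation; 1 residual degree of freedom per gene beside a median of 10.6 prior ones), and the fit was tested on simulated data, where it called more unchanged genes than the nominal rate allows. A fold on this scale understates the change of low genes. Adjusted p values are Benjamini-Hochberg over all 13026 genes. The trials are independent by the study's methods and the numbers paired the samples, as replicate 2 minus replicate 1 correlated between gels with r from 0.278 to 0.827. An exact two-sided permutation test of a single gene with 2 libraries per gel cannot go below p = 0.333. Leave-one-out fits used the remaining 7 libraries with the trial term.

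The genes named were the 12 with the largest rise and the 12 with the largest fall among called genes whose gels did not overlap, up to 4 called members per list, YAP pathway genes and near copies. Others serve as contrast or in counts and were chosen after their values were seen. The comparison, the gene lists and the naming rule were chosen with earlier results of these data known. Positions are from GENCODE 44 lifted to hg19 (90.8% of tested genes matched) and promoters from RefSeq on GRCh38.p14.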

Additional observations from a re-analysis of the deposited data

How the results depend on the processing

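The counts of genes depended on the trial term, the filter, the scaling and the variance model. Against 240 higher and 192 lower, there were 26 and 2 with no replicate block, 7 and 1 with all 8 libraries and no replicate block, and 66 and 16 with neither trend nor robust moderation. With no filter on low values (18122 genes tested), limma called 0 higher and 0 lower, with 1076 and 904 at an unadjusted p below 0.05, and the cause was not tested. Equal column totals gave 722 higher and 259 lower, where the median of all genes was 0.15 in place of -0.01. Leaving out 1 library gave 47 to 1128 higher and 12 to 1361 lower. The other alternatives gave 212 to 264 higher and 156 to 205 lower. Among named genes with no call, leaving out 1 library moved the log2 difference of CYR61 between -0.39 and 1.04 (-0.079 without soft col:rBM replicate 2), of ITGB2 between -0.68 and 0.14, of YAP1 between -0.67 and 0.094 and of WWTR1 between -0.68 and 0.16, so each changed sign. Without the replicate block 76 of the 98 named genes lost their call, while CTGF, CYR61, ITGB2, YAP1, WWTR1 and STAT3 had none to lose. The trials are balanced over the gels, so the differences themselves are the same in both fits by design. Depth limits genes such as KLK5 and SPRR2A, at 3 reads or fewer in 1 gel.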

Other observations

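Some called genes outside the lists are given here, chosen after their values were seen. Of the membrane mucins, MUC1 rose, with 1700 and 3909 normalized counts in stiff IPNs and 520 and 582 in soft col:rBM gels, and so did MUC21, with 20 and 12 against 2 and 0. RARRES1, a retinoic acid responsive gene, had 90 and 62 against 2 and 2 and ALDH1A3 had 1940 and 1676 against 317 and 462, both higher, while ALDH1A2 fell. ALDH3A1, an aldehyde dehydrogenase, was higher at 514 and 556 against 66 and 178, as were the cytochromes P450 CYP1B1 at 1071 and 515 against 301 and 307 and CYP1A1 at 35 and 18 against 2 and 1. MUC21, RARRES1 and CYP1A1 passed the filter only through the stiff IPN libraries, so for them only a rise could be seen. KYNU, which breaks down kynurenine, had 4756 and 5683 against 1372 and 1612, and SOD2, the mitochondrial superoxide dismutase, had 6392 and 5976 against 2224 and 2226. The endothelins diverged, with EDN1 at 48 and 176 against 6 and 11 and EDN2 at 10 and 13 against 61 and 71.

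Of the epithelial sodium channel subunits, SCNN1B had 1616 and 631 normalized counts in stiff IPNs and 4195 and 1653 in soft col:rBM gels and SCNN1G had 2459 and 1165 against 4832 and 2658, both called lower, while SCNN1A with 4535 and 4634 against 4701 and 3439 was not called. TREM1, a receptor of myeloid cells, had 1353 and 356 against 3587 and 2422, LAPTM5, a lysosomal protein of blood cells, had 641 and 77 against 2159 and 140, and CSF1R had 166 and 228 against 648 and 376. These 3 genes were called lower, as was CD68, while CD14 was called higher and PTPRC was at 0 in each library. VNN3, UBD and PGLYRP4 were at 0 in both soft col:rBM libraries, with 15 and 41, 11 and 10, and 10 and 10 in stiff IPNs.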
